A study of Mus musculus with 18 samples.

Results

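The interferon-stimulated genes described here are 40 mouse genes given by name: 5 interferon receptor chains, 5 transcription factors, 5 genes for nucleic acid sensing (4 sensors and the ligase Trim25), 2 genes of the ISG15 system, 11 antiviral effectors, 4 other induced genes and 8 interferon-inducible GTPases. Of the 40, 39 were matched to an identifier among the 43432 genes of the count tables. Gbp6 was not matched and is not analysed here. The members were chosen by name, with earlier results of these data known.

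The cells were intestinal stem cells sorted from the intestinal epithelium of mice aged 8 to 16 weeks, with 5000 to 10000 cells per sample. All mice received tamoxifen, the drug used to switch on an inducible deletion. The groups were wild type (4 libraries) and Dlg1 conditional knock-out (4 libraries) at 48 hours, called 2 days here, and wild type (5 libraries) and Dlg1 conditional knock-out (5 libraries) at 14 days. Dlg1 encodes a scaffold protein of cell polarity and junctions. The sources used here do not name the Cre driver, the floxed allele or the sorting markers. Nor do they say whether each sample is 1 animal, so a p-value reflects the spread among samples alone, and that spread may be technical. The study asked which genes differ between Dlg1 knock-out and wild-type stem cells at each time.

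Interferons are secreted proteins that warn cells of infection. Type I interferons act through the receptor chains Ifnar1 and Ifnar2, type II interferon through Ifngr1 and Ifngr2, and type III interferons through Ifnlr1, which is prominent in epithelia such as that of the gut. The receptors activate STAT proteins, which with Irf9 bind the interferon-stimulated response element, or as dimers bind the gamma-activated site, and switch on genes that block viruses and other parasites inside the cell. Stem cells of several tissues are known to keep some of these genes on without infection.

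The promoters carry these elements, and those of the members that the results below turn on are printed for that reason. A promoter window here is the stretch from 250 bases before to 50 bases after a RefSeq gene start in build GRCm38.p6, and 33 members had one. The core of the interferon-stimulated response element (GAAA, then any 2 bases, then GAAA) was found on either strand in the windows of 16 of 33 members (48.5%), against 3.99% of 27025 genes. The letters TTCNNNGAA, the core of the gamma-activated site, were found in 12 of 33 members (36.4%), against 9.55% of genes. Capitals mark these matches, which overlap one another in Isg15, Irgm1 and Bst2, and each sequence runs 5′ to 3′ on the strand of its gene. The first 5 are an ISG15-system gene and an antiviral effector (Isg15 at chr4:156200858-156200908, minus strand; Ifit1 at chr19:34640769-34640829, plus strand) and 3 GTPases (Irgm1 at chr11:48871425-48871454, minus strand; Igtp at chr11:58199486-58199555 and Irgm2 at chr11:58214877-58214947, plus strand).
Isg15: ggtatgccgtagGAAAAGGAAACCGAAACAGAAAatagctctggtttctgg
Ifit1: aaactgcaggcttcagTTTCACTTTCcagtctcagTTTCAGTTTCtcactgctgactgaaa
Irgm1: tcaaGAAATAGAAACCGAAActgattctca
Igtp: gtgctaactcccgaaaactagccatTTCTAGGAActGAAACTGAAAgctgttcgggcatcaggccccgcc
Irgm2: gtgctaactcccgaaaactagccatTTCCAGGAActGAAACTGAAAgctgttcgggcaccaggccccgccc
The next 3 are transcription factors with gamma-activated site letters and no response element letters (Irf1 at chr11:53769894-53769954 and Irf8 at chr8:120736168-120736228, plus strand) and an effector with both (Bst2 at chr8:71537572-71537632, minus strand).
Irf1: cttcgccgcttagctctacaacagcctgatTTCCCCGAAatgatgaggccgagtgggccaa
Irf8: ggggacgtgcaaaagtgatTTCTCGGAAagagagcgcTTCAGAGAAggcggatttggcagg
Bst2: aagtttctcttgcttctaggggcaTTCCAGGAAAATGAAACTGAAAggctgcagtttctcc
Over the 70 bases printed for Igtp and the first 70 printed for Irgm2, 68 were equal. The members with response element letters had a median level of 2.10 CPM per kb at 2 days and 1.98 at 14 days, and the 17 members whose window lacked them had 6.85 and 6.03. The 17 include all 5 receptor chains, so the groups differ in role as well as in letters. For the tested members with the letters, the median log2 fold change, knock-out over wild type, was -0.04 at 2 days and 0.01 at 14 days. It was 0.09 and -0.04 for the members without them. A match of letters describes a window and is not a binding site.

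Library totals were 14.8 to 40.5 M counts at 2 days and 11.1 to 15.7 M at 14 days. Wild-type library 1 at 2 days stood apart, with the highest total and the highest share of mitochondrially encoded genes (49.1%). In knock-out library 5 at 14 days, 4 gene models without a standard gene name took 45.7% of counts, and at most 9.81% elsewhere. What these models are was not tested. Dlg1 itself stood at 54.0 ± 9.97 CPM in the knock-out and 70.3 ± 10.8 in wild type at 2 days (SD, n = 4 each), and at 55.6 ± 19.8 and 63.3 ± 10.4 at 14 days (n = 5 each). Its log2 fold change was -0.38 (SE 0.19) at 2 days and -0.17 (SE 0.22) at 14 days, and it did not pass at either time (edgeR adjusted p = 0.866 and 0.957). The counts cover the whole gene, so they need not show a deletion of part of it. The extent of the deletion was not tested. All 7 stem cell markers of the list were detected. Their summed level at 2 days was 5110 to 6036 CPM in the knock-out and 5948 to 6705 CPM in wild type. The 14 day sums were 1929 to 2730 CPM in the knock-out and 2154 to 2902 CPM in wild type. At 2 days 6 of the 7 had a lower fitted level in the knock-out (median log2 fold change -0.27), and at 14 days 3 did (median 0.04). At either time 0 had an unadjusted p under 0.05.

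The levels of the members differed widely, with the receptors for type II interferon and Irf1 at the top and many classical effectors at the bottom. CPM are counts per 1 M counts, scaled by TMM over all 18 libraries, and CPM per kb divides them by the exon length of the gene. Ifngr1, the binding chain of the type II receptor, ranked first at both times, with 70.7 CPM per kb at 2 days and 127 at 14 days. Irf1, a factor induced by interferon gamma that switches on many of the other members, had 37.0 and 112 CPM per kb. Trim25, a ubiquitin ligase that helps the RNA sensor Ddx58, had 38.3 and 20.1, and Ifngr2, the second chain of the type II receptor, 21.3 and 21.1. At the other end, 12 members at 2 days and 11 at 14 days were under 1 CPM per kb, among them Usp18, Ifit1, Ifit3, Oas2 and Oas3 at both times. The median over the 39 members was 3.33 CPM per kb at 2 days and 2.62 at 14 days, against 5.59 and 5.23 over the 12480 genes tested at both times.

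**Figure D1:**
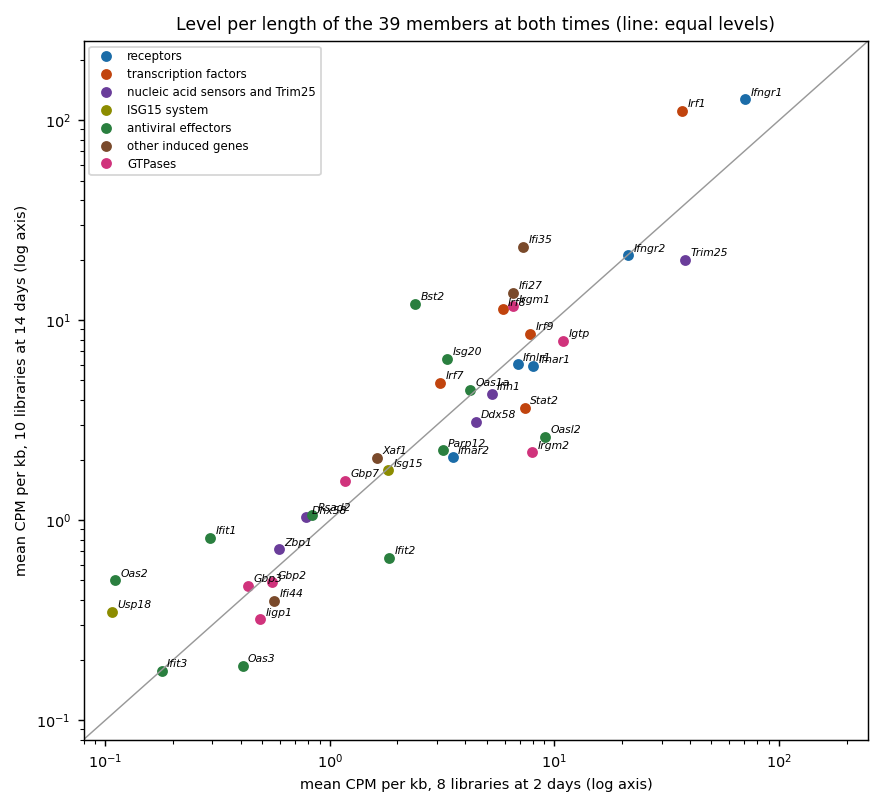
Mean CPM per kb of exon length of the 39 members found, over 8 libraries at 2 days (horizontal, log axis) and 10 libraries at 14 days (vertical, log axis), coloured by role; the line marks equal levels. Ifngr1 (70.7 and 127 CPM per kb) and Irf1 (37.0 and 112) lie at the top, and Bst2 and Oasl2 lie far above and far below the line.

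No member differed between knock-out and wild type at 2 days after adjustment, and Irf1 and Irf8 came nearest. Of the 39 members, 35 passed the filter on low counts; Usp18, Ifit3, Oas2 and Gbp3 did not. The edgeR quasi-likelihood test called 0 of the 35 at a Benjamini-Hochberg adjusted p under 0.05, as it called 0 of 13031 genes (0% of genes). At an unadjusted p under 0.05 it listed 2 members, 5.71% of those tested, against 4.91% of all genes, and both were higher in the knock-out. Of the 35, 20 had a higher and 15 a lower fitted level in the knock-out, with a median log2 fold change of 0.09 against 0.01 over all genes. The groups did not overlap for 1 member, Irf8, against 3.93% of genes. Without wild-type library 1 the median was 0.14 and 0 members had an unadjusted p under 0.05. Without knock-out library 1 or 2 the median was -0.03 or -0.02, with 16 of 36 members higher in each case. In a bulk sample, fewer cells that hold an RNA and less of it per cell cannot be told apart.

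At 14 days, likewise, no member differed between genotypes after adjustment. Of 38 members tested (Ifit3 was not), 0 were called, as were 0 of 13991 genes (0% of genes), and 0 had an unadjusted p under 0.05, against 3.99% of genes. The groups overlapped for every member tested, and did not for 0.55% of genes. There were 20 members with a higher and 18 with a lower fitted level in the knock-out, and the median log2 fold change was 0.00, with 0.01 over all genes. Without knock-out library 5 the median was -0.10. The smallest adjusted p of a member was 0.866 at 2 days and 0.957 at 14 days. Standard errors of the members' log2 fold changes ran from 0.17 to 1.04 at 2 days (median 0.37) and from 0.14 to 0.997 at 14 days (median 0.27), so for the low members only large differences could have been seen.

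**Figure D2:**
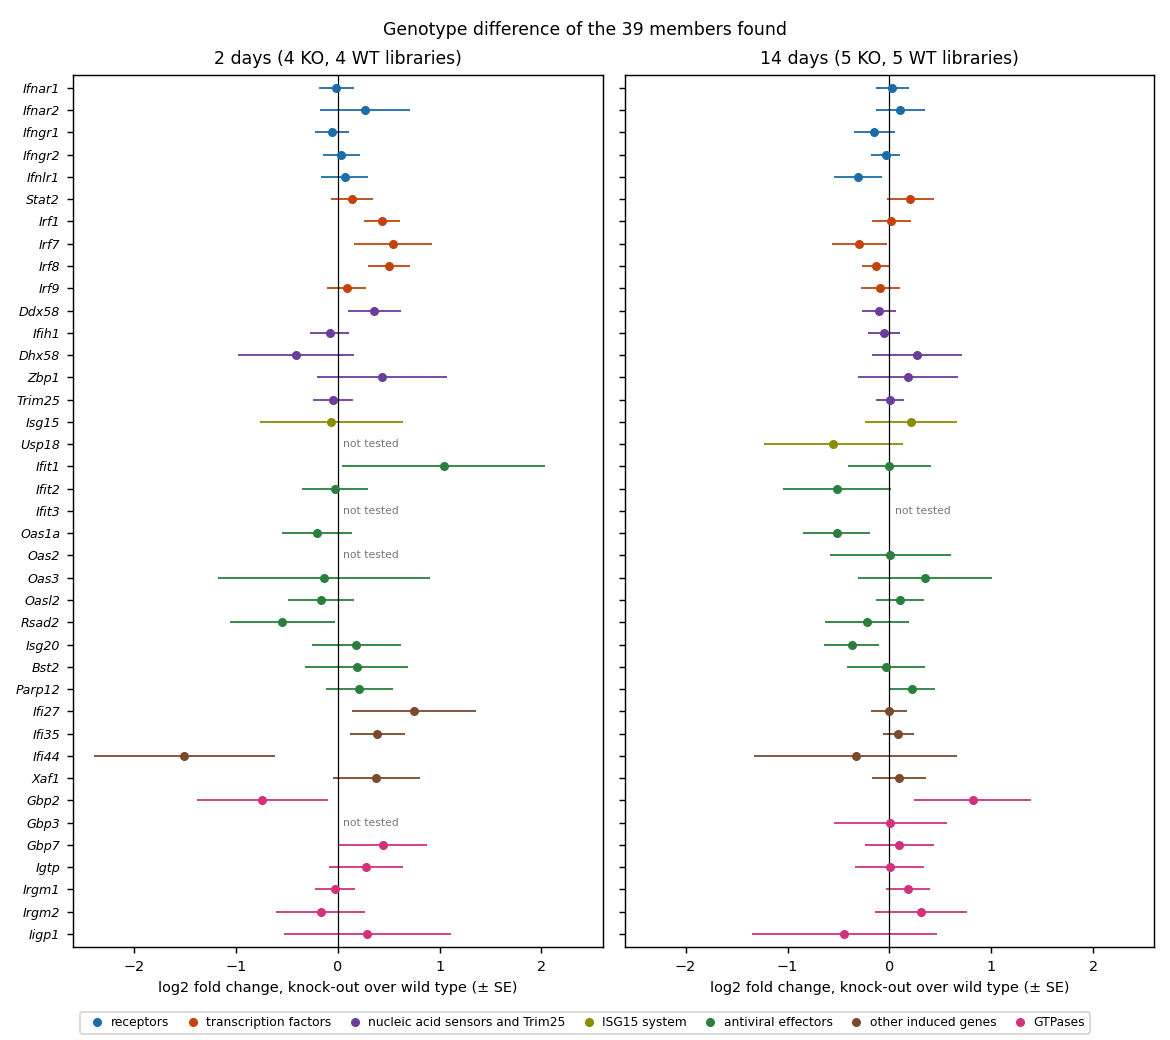
Log2 fold change of knock-out over wild type (horizontal, points) with its standard error (bars) for the 39 members, at 2 days (left; 4 against 4 libraries) and 14 days (right; 5 against 5 libraries), coloured by role. All 5 transcription factors lie right of 0 at 2 days, between 0.09 and 0.54, and 2 of 5 do at 14 days.

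None of the 5 receptor chains passed the test at either time. Ifngr1 measured 208, 229, 154 and 197 CPM in knock-out libraries 1 to 4 at 2 days, and 236, 213, 178 and 194 in the wild-type libraries. The 14 day values were 294, 330, 273, 314 and 490 CPM in the knock-out and 429, 458, 294, 379 and 358 in wild type. The ranges overlapped at both times, with log2 fold changes of -0.06 (SE 0.17) and -0.15 (SE 0.20). Ifngr2 measured 94.5, 79.5, 73.8 and 76.9 CPM in the knock-out and 105, 72.7, 64.9 and 74.7 in wild type at 2 days. The 14 day libraries held 70.3, 88.2, 82.0, 65.2 and 84.7 CPM in the knock-out and 94.3, 68.4, 89.1, 78.7 and 75.5 in wild type, again overlapping. Ifnar1 and Ifnar2, the type I chains, averaged 47.7 and 11.7 CPM at 2 days and 35.0 and 6.86 at 14 days, and Ifnlr1, the type III chain, 28.7 and 25.2. The log2 fold changes of the 5 chains lay between -0.06 and 0.26 at 2 days and between -0.31 and 0.11 at 14 days, none with an unadjusted p under 0.05. Without wild-type library 3 at 14 days Ifnlr1 came under it.

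Among the transcription factors, Irf1 and Irf8 were the only members with an unadjusted p under 0.05 at 2 days. Irf1 measured 149, 199, 144 and 184 CPM in the knock-out libraries and 93.2, 130, 145 and 134 in wild type at 2 days. Knock-out library 3, at 144, lay just below wild-type library 3, at 145, so the groups overlapped. The log2 fold change was 0.43 (SE 0.18), with an unadjusted edgeR p of 0.0316 and an adjusted p of 0.866, and the two-sided exact permutation p was 0.0571. At 14 days Irf1 measured 362, 410, 413, 445 and 588 CPM in the knock-out and 470, 405, 361, 574 and 415 in wild type, a log2 fold change of 0.02 (SE 0.19).

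Irf8, a factor best known from myeloid and B cells, measured 44.5, 55.1, 46.5 and 48.1 CPM in the knock-out libraries at 2 days and 24.7, 32.1, 44.2 and 36.7 in wild type. Every knock-out library lay above every wild-type library, by a margin of less than 1 CPM at the closest pair. The log2 fold change was 0.50 (SE 0.20), with an unadjusted edgeR p of 0.0308, an adjusted p of 0.866 and an exact permutation p of 0.0286, the smallest that 4 against 4 libraries can give. At 14 days Irf8 measured 68.8, 87.0, 68.2, 82.7 and 72.0 CPM in the knock-out and 70.4, 80.1, 106, 82.8 and 82.1 in wild type. These ranges overlapped, and the log2 fold change was -0.13 (SE 0.14).

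Wild-type library 1, which stood apart, was the lowest of the 8 libraries for both genes at 2 days. Without it the log2 fold change was 0.31 (SE 0.15) for Irf1 and 0.36 (SE 0.17) for Irf8, with unadjusted edgeR p-values of 0.0554 and 0.0515. The other transcription factors had log2 fold changes of 0.54 (Irf7, SE 0.38), 0.14 (Stat2) and 0.09 (Irf9) at 2 days, and of -0.29, 0.20 and -0.09 at 14 days. Irf1 overlaps the exons of Gm17334, Irf7 those of Phrf1 and Irf9 those of Rnf31, so their counts may hold reads of these genes.

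Markers of other cells are given beside these values. Of the enterocyte, Paneth cell, goblet cell, tuft cell, enteroendocrine cell and leukocyte markers, 0 were called at either time. All 7 enterocyte markers had higher fitted levels in the knock-out at 2 days (median log2 fold change 1.47). Of these, 5 (71.4%) had an unadjusted p under 0.05, against 4.91% of all genes, and the groups overlapped for every enterocyte marker. Their summed level was 413 to 3128 CPM in the knock-out and 423 to 667 CPM in wild type, and none was at 0. Knock-out libraries 1 and 4 were the high ones. Irf1 and Irf8 were highest in knock-out library 2, whose mean log2 level of enterocyte markers, minus the wild-type mean, was -0.07. On the same scale that library was the highest at 2 days for goblet cell (1.35), tuft cell (1.68) and enteroendocrine cell markers (0.72). For Paneth cell markers it was at 1.16, below knock-out library 3 (1.34) and wild-type library 3 (1.66). At 14 days 6 of the 7 enterocyte markers were lower in the knock-out (median -0.76), with summed levels of 373 to 2651 against 469 to 4225 CPM. Of the 7, 2 (28.6%) had an unadjusted p under 0.05, both lower, against 3.99% of all genes, and the groups overlapped for every one. The 4 goblet cell markers were higher at both times (median 0.60 at 2 days and 0.57 at 14 days), 2 of them (50%) with an unadjusted p under 0.05 at 2 days. Of the 4 tuft cell markers 3 were higher at each time (median 0.74 and 0.42). At 2 days 1 of the 4 (25%) had an unadjusted p under 0.05, against 4.91% of all genes. The groups did not overlap for 1 (25%, against 3.93% of genes). This was Alox5ap, at 0.756 to 2.10 CPM in the knock-out and 0.0685 to 0.385 in wild type. The medians at 2 and 14 days were 0.20 and -0.35 for 5 Paneth cell markers, and -0.30 and 0.20 for 3 enteroendocrine cell markers. Of 14 leukocyte markers, 10 averaged under 1 CPM in the knock-out and 12 in wild type at 2 days. Their summed level was 27.5 to 36.5 CPM in the knock-out and 31.4 to 80.4 CPM in wild type. Itgam, a myeloid integrin chain, measured 8.25, 3.55, 6.36 and 5.24 CPM in the knock-out and 65.8, 10.5, 9.52 and 12.0 in wild type, so every knock-out library lay below every wild-type library. Its log2 fold change was -2.07 (SE 0.61, edgeR adjusted p = 0.866), with an unadjusted p under 0.05. The highest value, 65.8 CPM, is that of wild-type library 1, which stood apart. Of the 4 leukocyte markers tested at 2 days, 2 had a higher and 2 a lower fitted level in the knock-out. The other 13 leukocyte markers summed to 19.2 to 33.0 CPM in the knock-out and 14.6 to 30.6 CPM in wild type. The part of these cells in the values of Irf1 and Irf8 was not tested.

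**Figure D3:**
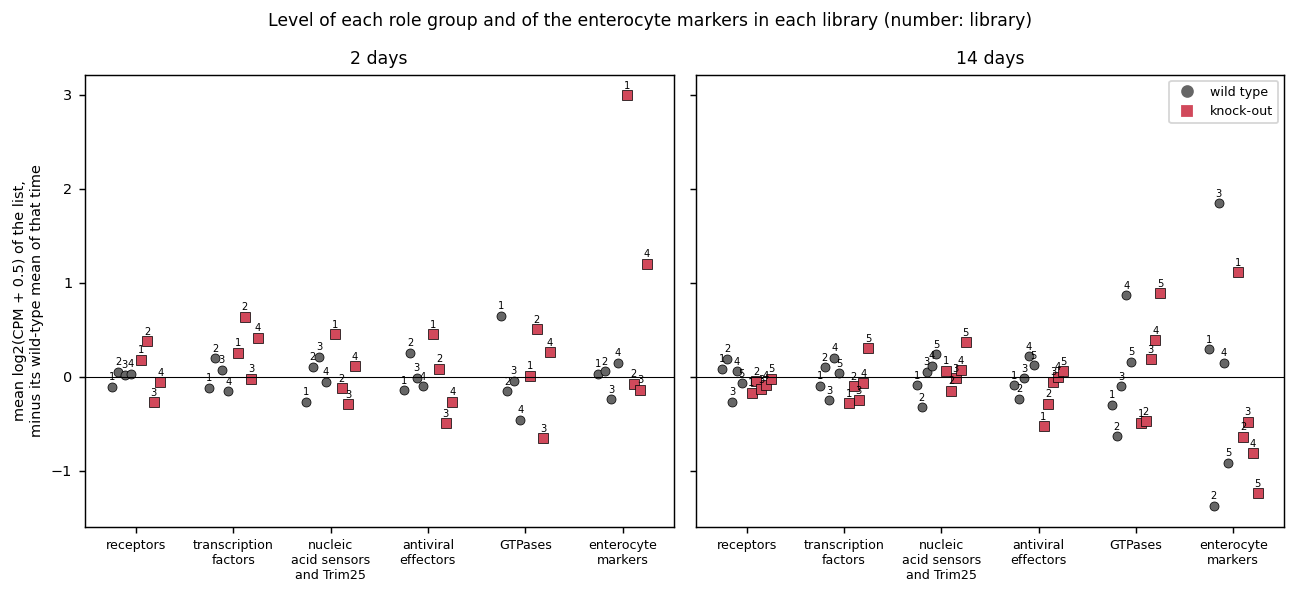
Mean log2(CPM + 0.5) of the members tested in 5 role groups, and of 7 enterocyte markers, minus the wild-type mean of that time, in each library at 2 days (left) and 14 days (right); circles are wild type, squares knock-out, numbers name the library. Genotypes overlap in every role group, the GTPases spread most among the 5 role groups at 14 days, and the enterocyte markers spread more than any of them.

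The sensors of foreign nucleic acid and Trim25 did not separate the genotypes. Trim25 measured 243, 197, 185 and 242 CPM in the knock-out and 315, 204, 186 and 191 in wild type at 2 days, with wild-type library 1 the highest. Its 14 day levels were 124, 127, 97.9, 100.9 and 124 CPM in the knock-out and 104, 130, 109, 110 and 128 in wild type. Ifih1, the RNA sensor known as MDA5, measured 45.7, 33.1, 42.0 and 45.8 CPM in the knock-out and 37.9, 49.6, 39.99 and 49.0 in wild type at 2 days. These ranges overlapped, as did those at 14 days, where Ifih1 was 38.2, 35.3, 26.0, 33.4 and 37.0 CPM in the knock-out and 39.02, 28.1, 33.95, 39.98 and 38.1 in wild type. Ddx58, the RNA sensor known as RIG-I, had a log2 fold change of 0.36 (SE 0.26) at 2 days and -0.10 (SE 0.17) at 14 days. Dhx58, a regulator of these sensors, and Zbp1, a sensor of left-handed nucleic acid that can start cell death, averaged 2.57 and 2.08 CPM at 2 days and 3.39 and 2.53 at 14 days.

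Isg15, a ubiquitin-like protein that is attached to other proteins after interferon, and Usp18, which removes it and dampens the receptor, were barely expressed. Isg15 measured 2.03, 0.953, 0.459 and 1.94 CPM in the knock-out and 1.76, 2.10, 1.23 and 0.512 in wild type at 2 days, which came from 7 to 41 counts per library. Its 14 day levels were 1.07, 0.923, 2.78, 1.38 and 0.967 CPM in the knock-out and 1.10, 0.727, 1.80, 1.18 and 1.49 in wild type, from 8 to 38 counts. The groups overlapped at both times, with log2 fold changes of -0.06 (SE 0.71) and 0.21 (SE 0.45). Usp18 measured 0.988, 0.164, 0 and 0 CPM in the knock-out and 0.899, 0.0583, 0.274 and 0 in wild type at 2 days, under the filter. At 14 days, where it passed the filter, it measured 1.14, 1.12, 0.512, 0.437 and 0.725 CPM in the knock-out and 1.52, 1.25, 0, 1.92 and 1.10 in wild type (log2 fold change -0.55, SE 0.68).

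Among the antiviral effectors Oasl2 had the highest level per length at 2 days (9.04 CPM per kb) and Bst2 at 14 days (12.1 CPM per kb), while Ifit3 was under the filter at both times. Oasl2, of the 2′-5′-oligoadenylate synthetase-like family, measured 69.0, 55.4, 31.5 and 61.8 CPM in the knock-out and 103, 59.2, 42.9 and 38.3 in wild type at 2 days. The 14 day levels were 11.6, 16.3, 14.2, 24.5 and 19.1 CPM in the knock-out and 13.7, 12.4, 15.1, 22.3 and 17.6 in wild type. Genotypes overlapped at each time, while every 14 day library lay below every 2 day library. Parp12, an ADP-ribosyltransferase, measured 18.3, 12.4, 14.6 and 9.25 CPM in the knock-out and 6.21, 11.9, 15.3 and 13.7 in wild type at 2 days. Its 14 day levels were 9.91, 9.62, 8.70, 11.1 and 8.46 CPM in the knock-out and 6.75, 8.05, 12.6, 6.43 and 7.99 in wild type, with overlap at both times. Ifit1, which binds viral RNA, was at 0.128 to 2.85 CPM at 2 days and 1.40 to 3.42 at 14 days, and Oas2 was at 0 to 1.69 and 0.593 to 4.86. Rsad2, known as viperin, averaged 3.62 and 4.604 CPM at 2 and 14 days. Of the 9 effectors tested at 2 days 4 had a higher and 5 a lower fitted level in the knock-out, and of the 10 tested at 14 days 4 and 6, with 0 at an unadjusted p under 0.05.

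The 4 other induced genes likewise overlapped between genotypes. Ifi35 measured 15.7, 15.2, 11.2 and 14.7 CPM in the knock-out and 7.92, 12.9, 13.6 and 9.15 in wild type at 2 days (log2 fold change 0.39, SE 0.27). By 14 days the levels were 46.3, 32.8, 50.02, 43.8 and 33.1 CPM in the knock-out and 41.7, 40.9, 44.7, 35.7 and 33.4 in wild type. Every 14 day library was above every 2 day library, and Ifi35 also overlaps the antisense gene Gm11626. Ifi27 measured 14.99, 11.5, 4.59 and 17.1 CPM in the knock-out and 1.20, 14.7, 7.74 and 5.12 in wild type at 2 days (log2 fold change 0.75, SE 0.61). At 14 days it was 19.4, 17.8, 26.3, 21.5 and 14.99 CPM in the knock-out and 19.8, 18.8, 23.2, 23.2 and 16.9 in wild type. The member of lowest fold change at 2 days was Ifi44, at -1.51 (SE 0.89), where wild-type library 1 held 14.3 CPM and the other 7 libraries 0.430 to 3.67. Xaf1, a promoter of apoptosis, had log2 fold changes of 0.38 (SE 0.43) and 0.10 (SE 0.26).

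**Figure D4:**
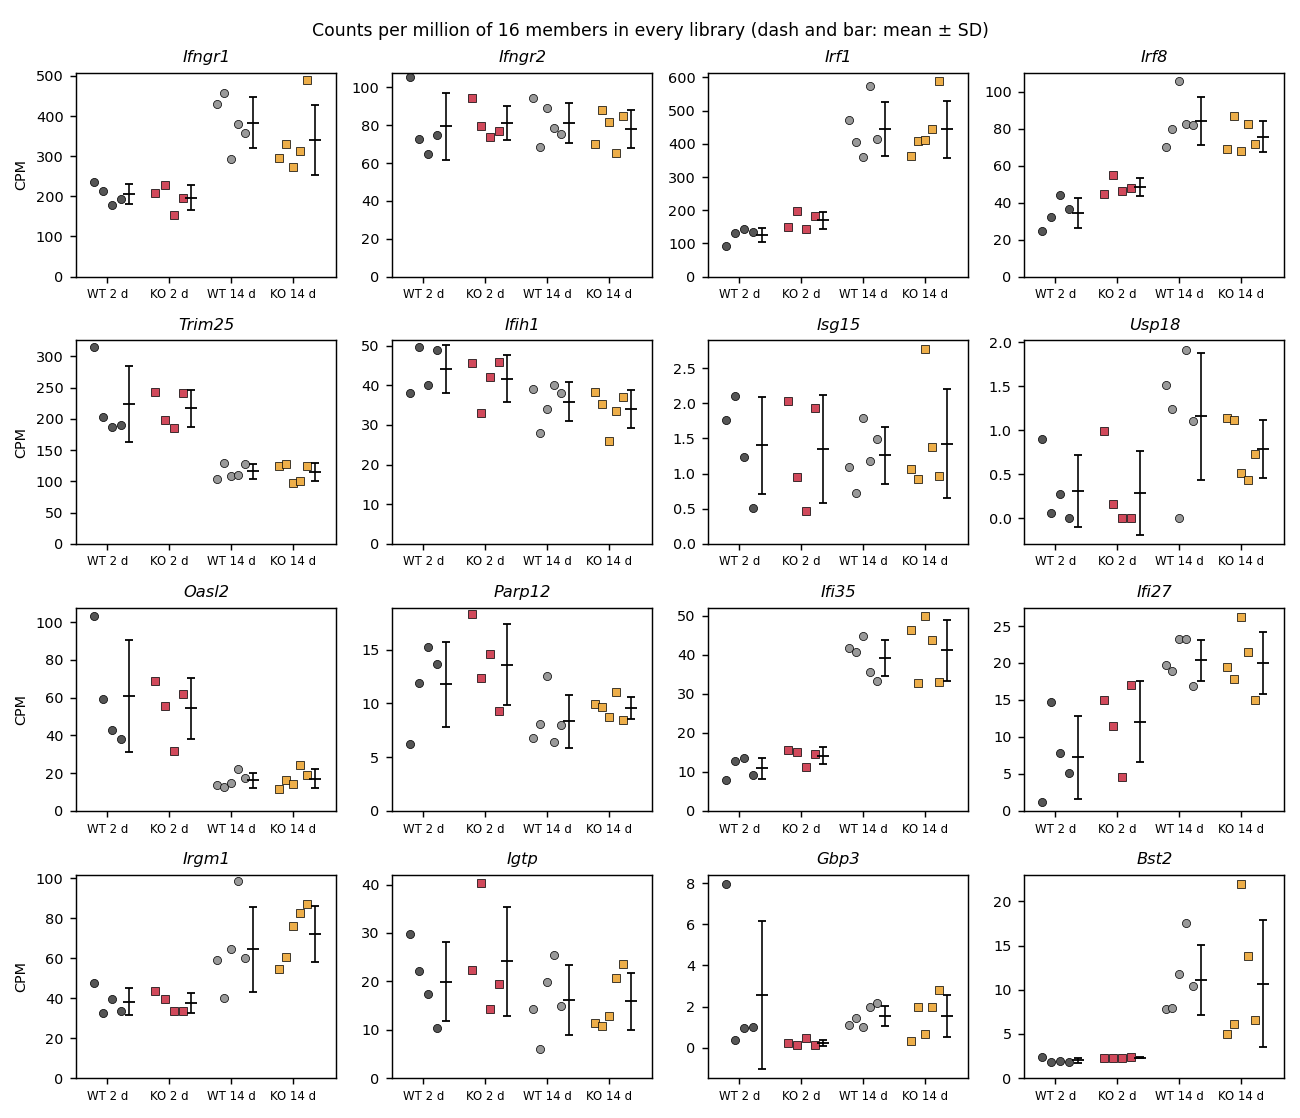
CPM (vertical, linear axes that start at or below 0) of 16 members in every library, by group, with the mean and SD of each group beside the points (n = 4 per group at 2 days, 5 at 14 days). Knock-out and wild type overlap at each time in all panels but Irf8 at 2 days (44.5 to 55.1 against 24.7 to 44.2 CPM), and wild-type library 1 at 2 days holds the high points of Gbp3 (7.97 CPM), Trim25 (315) and Oasl2 (103).

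The interferon-inducible GTPases, which attack the vacuoles that hold intracellular parasites, varied more between libraries than between genotypes. Irgm1, a regulator of the other immunity-related GTPases, measured 43.7, 39.6, 33.5 and 33.4 CPM in the knock-out and 47.6, 32.6, 39.4 and 33.7 in wild type at 2 days. The 14 day libraries held 54.7, 60.5, 76.1, 82.6 and 87.4 CPM in the knock-out and 59.0, 39.97, 64.4, 98.5 and 60.3 in wild type. The spread within each genotype was wider than the difference between them (log2 fold change 0.19, SE 0.22). Igtp measured 22.4, 40.3, 14.2 and 19.5 CPM in the knock-out and 29.7, 22.2, 17.5 and 10.4 in wild type at 2 days. In the 14 day libraries it measured 11.4, 10.8, 12.7, 20.7 and 23.6 CPM in the knock-out and 14.2, 5.92, 19.8, 25.5 and 14.99 in wild type, a log2 fold change of 0.00 (SE 0.34). Igtp and Irgm2 share exons, so how their reads were divided is uncertain.

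At 14 days the same libraries were high in several GTPases, across genotypes. Wild-type library 4 was the highest of the 10 libraries for Irgm1, Igtp and Iigp1, and knock-out library 5 for Irgm2, Gbp2, Gbp3 and Gbp7. Wild-type library 2 was the lowest for Irgm1, Igtp and Gbp2, knock-out library 2 for Irgm2 and Iigp1, and knock-out library 1 for Gbp3 and Gbp7. The mean log2 level of the 7 GTPases, taken from the wild-type mean, was 0.87 in wild-type library 4 and 0.89 in knock-out library 5, and -0.63, -0.49 and -0.48 in wild-type library 2 and knock-out libraries 1 and 2. Iigp1, an effector GTPase of this family, measured 0.686, 0, 2.56, 1.31 and 3.38 CPM in the knock-out and 0.314, 0.415, 1.45, 6.43 and 2.09 in wild type. High and low libraries were thus found in both genotypes, and no GTPase had an unadjusted p under 0.05 at either time among those tested.

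The column names at 14 days hold a letter, B for libraries 1 and 2 and J for libraries 3 to 5 of each genotype, whose meaning is not given in the sources used here. All 7 GTPases had a higher mean in the 6 J libraries than in the 4 B libraries, by ratios from 1.45 (Gbp3) to 8.12 (Iigp1), and by 1.28 to 7.83 without knock-out library 5. Iigp1 and Xaf1, 2 of 38 members tested, did not overlap between the letters, against 1.57% of genes. Over the 38 members 27 had a higher and 11 a lower mean in J, with a median ratio of 1.14 against 0.999 over all genes tested. Within the letters, knock-out was set against wild type as the log2 ratio of mean CPM, with 0.5 added to each mean. This log2 ratio was 0.22 (B) and 0.14 (J) for Irgm1, 1.23 and 0.31 for Gbp2, and -0.04 and -0.39 for Iigp1. It differed in sign between the letters for the other 4 GTPases, at 0.14 and -0.08 for Igtp, -0.83 and 0.65 for Irgm2, -0.58 and 0.37 for Gbp7, and -0.11 and 0.06 for Gbp3. The letters hold 2 or 3 libraries per genotype. With the letter as a factor 0 members had an unadjusted p under 0.05.

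**Figure D5:**
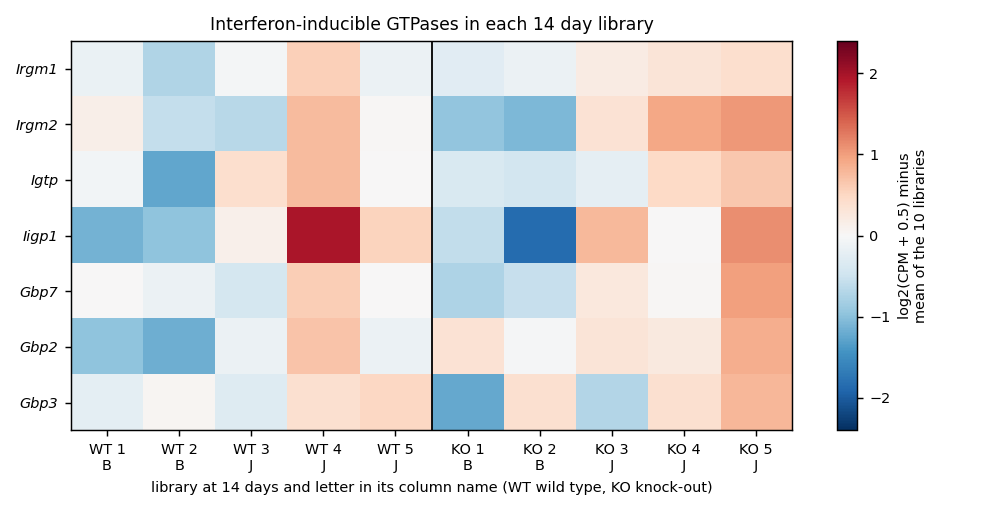
Log2(CPM + 0.5) of 7 GTPases in each of the 10 libraries at 14 days, minus the mean of the 10 (colour; red above, blue below), with the letter of the column name under each library. Wild-type library 4 and knock-out library 5 are red in all 7 rows, and wild-type library 2 is blue in 6 of them.

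A joint fit of the 18 libraries tested whether the genotype effect was larger or smaller at 14 than at 2 days. The times were deposited as separate tables, and time cannot be told apart from any other difference between the tables. No member was called, as 0 of 15458 genes were (0% of genes), and 2 of 38 members had an unadjusted p under 0.05, against 5.96% of genes. For Irf8 the effect at 14 days minus that at 2 days was -0.65 on the log2 scale (SE 0.23, edgeR adjusted p = 0.762), and -0.51 (SE 0.21) without wild-type library 1 at 2 days. For Gbp3 it was 3.40 (SE 1.14, edgeR adjusted p = 0.762). The median over the 38 members was -0.18, with 14 above and 24 below 0, against -0.01 over all genes. This direction rested on knock-out library 1 at 2 days, without which the median was 0.02 and 19 of 38 members were above 0.

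Gbp3, a guanylate-binding protein, rests on 1 library. It measured 0.232, 0.131, 0.459 and 0.143 CPM in the knock-out and 7.97, 0.350, 0.959 and 1.02 in wild type at 2 days. The 14 day values were 0.305, 1.98, 0.658, 1.97 and 2.78 CPM in the knock-out and 1.10, 1.45, 1.03, 1.96 and 2.15 in wild type. The high value is wild-type library 1 at 2 days, and without it the difference between times was 1.67 (SE 0.95), with an unadjusted p no longer under 0.05.

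Averaged over both times, the genotype effect was called for 0 of 38 members and for 1 of 15458 genes (0.00647%), which is not a member. Only Gbp3 had an unadjusted p under 0.05 among the members, against 5.81% of genes, at a log2 fold change of -1.71 (SE 0.57, edgeR adjusted p = 0.829), and it was -0.85 (SE 0.47) without wild-type library 1 at 2 days. The median of the members was 0.06, with 0.01 over all genes, and it was -0.01 without knock-out library 1 or 2 at 2 days and -0.03 without wild-type library 4 at 2 days.

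Levels at 14 days, set against those at 2 days with both genotypes together, are a description, since time and table cannot be told apart. Of the 35 members tested at both times, 5 had every 14 day library above every 2 day library (14.3%, against 13.5% of genes). These were Bst2 (ratio of means 5.05), Ifi35 (3.21), Irf1 (3.02), Irf8 (1.93) and Ifngr1 (1.80). Bst2, known as tetherin because it holds budding viruses at the cell surface, measured 1.81 to 2.44 CPM in the 8 libraries at 2 days (median 2.27) and 5.03 to 22.01 in the 10 at 14 days (median 9.18). In 4 members every 14 day library lay below every 2 day library (11.4%, against 17.9% of genes): Oasl2 (0.289), Ifit2 (0.353), Stat2 (0.492) and Trim25 (0.524). Stat2, the partner of Irf9 in the factor that binds the response element, measured 35.4 to 60.7 CPM at 2 days (median 41.7) and 15.2 to 32.5 at 14 days (median 19.7). The median ratio over the 35 members was 0.99, against 0.96 over all genes, so members moved in both directions.

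The interferons themselves were almost absent. Of 20 ligand genes 0 passed the filter at either time, 5 were at 0 in all 18 libraries, and the 20 together held 1 to 12 counts per library. The largest value of a ligand gene in a library was 10 counts, or 0.770 CPM. Among 24 genes for signalling and its regulators, 22 were tested at 2 days and 24 at 14 days, and 0 had an unadjusted p under 0.05 at either time. Of 61 further interferon-stimulated genes matched, 50 were tested at 2 days, and 0 were called. At an unadjusted p under 0.05, 4 of the 50 (8%) were listed, 3 higher in the knock-out and 1 lower, against 4.91% of all genes. The higher ones were Sp100 (log2 fold change 1.23, SE 0.43), a nuclear body protein, Oasl1 (0.95, SE 0.32), a relative of Oasl2, and Uba7 (0.92, SE 0.35), the enzyme that activates Isg15, and the lower one was Tor3a (-0.75, SE 0.32). At 14 days 49 were tested and 0 were called. Only Ifitm2, a membrane protein that blocks viral entry, had an unadjusted p under 0.05 (2.04%, against 3.99% of all genes). It was higher in the knock-out (log2 fold change 0.48, SE 0.22).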

How the data were processed

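Counts were taken as the authors deposited them: whole-number read counts per Ensembl gene, 1 table per time, not normalized. STAR 2.4.2a, bcl2fastq 2.20.0.422 and build GRCm38 are named in the submitters' processing notes. The sources used here do not state the annotation, counting program, strand setting or treatment of reads with several matches, so values of overlapping genes are uncertain. Libraries were made with SmartSeq and Nextera XT kits from poly(A) RNA, per the labels' protocols, which name no molecular identifiers. At 2 days knock-out columns begin with "Dmin", read as Dlg1 minus; every 2 day comparison rests on this. Column names carry no replicate number of the labels, so libraries are numbered by place and pair nothing. No replicates were duplicates (chi-square over degrees of freedom 27.6 to 637).

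Symbols and exon lengths came from GENCODE M21, which named 42462 of 43432 genes. Each time was fitted alone with edgeR 4.0.16 in R 4.3.3 (filterByExpr with minimum count 10, TMM, quasi-likelihood F-test, Benjamini-Hochberg adjustment over all genes tested, called under 0.05); the difference between times and the average used 1 fit of all 18 libraries. SE is the absolute log2 fold change over the square root of F. Exact permutation tests were two-sided, on log2(CPM + 0.5), over 70 (2 days) or 252 (14 days) assignments. Tested on simulated data, the fits recovered 100% of 200 genes changed 4-fold at 2 days (12857 genes) and at 14 days (13767 genes). Recovery of smaller changes, or at the low counts and wide spread of many members, was not tested. Promoters were RefSeq's. Alternatives were other scalings, filters, DESeq2 1.42.0, limma 3.58.1 voom and left-out libraries. Every member may be named; values in every library are given for members with an unadjusted p under 0.05 and the 2 highest of each role, and Bst2, Stat2 and Iigp1 were chosen after their values were seen. The members and lists were chosen with earlier results of these data known.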

Additional observations from a re-analysis of the deposited data

Results flagged for a closer look

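In 8 of 156 groups of 4 or 5 libraries (4 groups for each of 39 members), 1 library lay far from the others of its group on the log2(CPM + 0.5) scale, which is 5.13% where chance gives about 1 in 20. At 2 days these were Ifnar1 in wild-type library 4 (39.4 CPM, with 50.5 to 51.2 in the others), Trim25 in wild-type library 1 (315, with 186 to 204), and Rsad2 in wild-type library 3 (6.51, with 3.44 to 3.81). Irf7 (5.51, with 15.5 to 18.4) and Ddx58 (20.5, with 37.4 to 41.8) were both low in knock-out library 3 at 2 days, which was also the lowest of 8 libraries for 12 of 35 members (34.3%, against 14.6% of all genes) and the highest for 0 (against 14.7% of all genes). At 14 days they were Usp18 in wild-type library 3 (0 CPM, with 1.10 to 1.92 in the others), Ifit2 in knock-out library 1 (0.152, with 2.05 to 3.13) and Ifit2 in wild-type library 4 (4.32, with 2.65 to 2.88).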

How the results depend on the processing

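The count of members called was 0 in all 4 comparisons under every alternative run. The median log2 fold change of the members changed sign with single libraries, though it stayed within 1 SD of the main value throughout. That SD is the spread among libraries of the members' mean log2 level (0.27 at 2 days, 0.23 at 14 days and 0.25 in the joint fit). It is wider than the main medians themselves, so staying within it says little about their stability. At 2 days the median was 0.09 and ran from 0.08 to 0.12 under other scalings, filters and tools. It ran from -0.03 (without knock-out library 1) to 0.19 (without knock-out library 3) when a library was left out. At 14 days it was 0.00 and ran from -0.10 (without knock-out library 5) to 0.06 with libraries left out, and was 0.08 in the libraries of letter J alone; the letter alternatives were chosen after seeing the data. The difference between times ran from -0.26 to 0.02 (without knock-out library 1 at 2 days), and the average from -0.03 (without wild-type library 4 at 2 days) to 0.15 (without wild-type library 4 at 14 days). At 2 days Irf1 and Irf8 kept their direction in 17 of 17 alternatives, at 0.31 to 0.50 and 0.36 to 0.63. The fit without wild-type library 1 is in that count both as a left-out library and as the library that stood apart. Both genes lost an unadjusted p under 0.05 without wild-type library 1, knock-out library 2 or knock-out library 4, and Irf8 also without wild-type library 2. Without knock-out library 3 Irf7 and Ddx58 also came under it, and without wild-type library 2 Ifi27; at 14 days Ifnlr1 did without wild-type library 3, Gbp2 without wild-type library 4, and Ifi44 and Gbp2 in the libraries of letter B alone. Gbp3 at 2 days came under it in the fits without a filter, in 1 joint fit and in 5 of 8 with a library left out, and could not be tested at a minimum count of 50. Its difference between times was 2.31 with limma voom, where the unadjusted p was no longer under 0.05. No paired analysis was possible because the column names carry no replicate number of the labels.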
